A study of Mus musculus with 6 samples.

Results

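Lung myofibroblasts were defined here by transcripts of a small set of genes in each cell, and 727 of 38208 cells that passed quality filters met the definition. A cell had to contain UMIs (unique molecular identifiers, each counted as 1 captured RNA molecule) of at least 2 of the 3 core genes *Aspn*, *Hhip*, and *Lgr6* and of at least 1 of *Pdgfra*, *Wnt5a*, and *Tgfbi*. It could contain at most 2 of *Egfl7*, *Tie1*, *Cldn5*, *Cdh5*, and *Pecam1* (endothelium), at most 1 of *Higd1b*, *Cox4i2*, and *Trpc6* (pericytes), and at most 2 of *Serpinf1*, *Scara5*, *Clec3b*, and *Pi16* (adventitial fibroblasts). Of 43545 cell barcodes in the 6 libraries, those with at least 500 genes and at most 10% mitochondrial UMIs were kept. Lungs came from female TNF-Tg mice, which carry a human TNF transgene and develop pulmonary hypertension, and from female WT littermates. Several mice of 1 genotype and age were pooled, live cells negative for CD45 (leukocytes) and CD326 (epithelium) were sorted, and 1 droplet library was made for each genotype at 8, 14, and 20 weeks. The WT libraries held 209, 121, and 190 of these cells at 8, 14, and 20 weeks, and the TNF-Tg libraries held 80, 54, and 73. No barcode of these cells occurred in more than 1 library. Because no genotype and age has a second library, the 3 ages served as replicates of a genotype (n = 3), no test within an age was possible, and the animals of a pool cannot be told apart. In every series of values below the 3 ages follow the order 8, 14, and 20 weeks, and levels are given as CPM, UMIs of a gene per 1000000 UMIs summed over these cells of a library. The sums held 1407206, 727463, and 1309078 UMIs in WT and 970262, 645196, and 843335 in TNF-Tg libraries. TNF-Tg cells were read more deeply at the median, with 11216, 10906, and 10009 UMIs against 5806, 5465, and 6468 in WT.

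In the developing lung, myofibroblasts lie at the tips of growing septa and lay down elastin, and in the adult, cells of this lineage remain in the walls of the alveolar ducts and around the rings at the alveolar mouths. They receive hedgehog and PDGF signals from the epithelium, carry HHIP, which binds and restrains hedgehog ligands, and secrete WNT5A and FGF18. TNF acts on stromal cells through its receptors and the NF-kB transcription factors, whose targets include chemokines, adhesion molecules, and the feedback inhibitors of the pathway itself.

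The definition fixes the presence of its own genes, so their levels are given as a description and were not tested. *Aspn*, an extracellular proteoglycan, was at 3707, 1889, and 2858 CPM (WT) and 4419, 1739, and 2028 CPM (TNF-Tg), and *Lgr6*, a receptor for R-spondins, was at 128, 117, and 106 CPM (WT) and 129, 101, and 116 CPM (TNF-Tg). The libraries of the genotypes overlapped for both genes. *Hhip* (chr8:79965851-80058006, GRCm38) was at 4939.6, 5453, and 5177 CPM (WT) and 1874, 336, and 816 CPM (TNF-Tg), so every TNF-Tg library was below every WT library. Among all other kept cells it was at 42.7, 47.5, and 35.6 CPM (WT) and 7.71, 4.41, and 2.82 CPM (TNF-Tg). The noncanonical ligand *Wnt5a* was at 546, 409.6, and 482 CPM (WT) and 423, 126, and 115 CPM (TNF-Tg), and the matrix protein gene *Tgfbi* was at 640.3, 474, and 462 CPM (WT) and 391, 141, and 179 CPM (TNF-Tg). *Wnt5a* overlapped between genotypes because the TNF-Tg library at 8 weeks lay above 1 WT library, and *Tgfbi* did not overlap. *Pdgfra*, the PDGF receptor gene listed among the markers of these cells, did not set them apart in WT libraries. It was at 64.0, 92.1, and 77.9 CPM (WT) and 105, 225, and 155 CPM (TNF-Tg) in these cells and at 127, 113, and 72.7 CPM (WT) and 23.1, 33.1, and 98.6 CPM (TNF-Tg) in the other kept cells. UMIs of *Pdgfra* were seen in 17.2, 11.6, and 16.8% of WT and 38.8, 64.8, and 60.3% of TNF-Tg cells, and after each cell was thinned to 2000 UMIs in 9.57, 7.5, and 8.51% and 16.2, 33.3, and 27.4%. In thinned endothelial cells, which should lack it, the shares were 0.855, 0.804, and 0.525% and 0.238, 0.157, and 0.781%. Because *Pdgfra* was near or below its level in other cells in WT libraries, the cells are called *Aspn*, *Hhip*, and *Lgr6* cells where they are set against fibroblasts, and chosen cells in the plots.

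Which core genes a cell carried also differed between genotypes. Cells with *Aspn* and *Lgr6* but no UMI of *Hhip* made up 0, 2.48, and 0% of WT and 7.5, 16.7, and 17.8% of TNF-Tg cells. All 3 core genes were present in 47.4, 37.2, and 44.2% of WT and 56.2, 37.0, and 46.6% of TNF-Tg cells. At the threshold itself, cells inside with exactly 2 core genes had *Hhip* at 230.0 to 5043 CPM and *Pdgfra* at 98.1 to 240.3 CPM over the 6 libraries. Cells just outside, with 1 core gene and every other condition met, had *Hhip* at 48.0 to 835 CPM, *Pdgfra* at 362 to 972 CPM, and *Inmt*, a gene of *Col13a1* fibroblasts, at 305 to 4841 CPM against 47.9 to 428 CPM inside.

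Outside the definition, the genes with the highest fold over all other kept cells included *Cyp2e1*, a cytochrome P450 (61.7-fold), the collagen prolyl hydroxylase subunit *P4ha3* (35.6-fold), the UDP-sugar receptor *P2ry14* (35.3-fold), and *Scx*, a transcription factor of tendon (33.7-fold). The ligands *Wnt11* and *Bmp5*, the potassium channel gene *Kcnj8*, the prostaglandin receptor *Ptger2*, the cadherin *Cdh4*, and the lysophospholipase *Enpp2* were also among the leading 15, with *6330403K07Rik*, *Ccdc3*, *Rgs2*, and *Csmd1*. Leading genes follow from the choice of cells and are a description. *Fgf18*, a myofibroblast growth factor outside the definition, was at 189.7, 146, and 176 CPM (WT) and 77.3, 24.8, and 20.2 CPM (TNF-Tg), against 4.76, 8.23, and 3.74 CPM and 2.06, 3.56, and 6.77 CPM in the other kept cells. In the smooth muscle class described below it was at 51.0, 90.9, and 11.9 CPM (WT) and 19.7, 8.24, and 13.0 CPM (TNF-Tg). In *Col14a1* fibroblasts it was at 20.0, 20.2, and 9.93 CPM (WT) and 32.3, 22.5, and 33.5 CPM (TNF-Tg). The smooth muscle actin gene *Acta2* was at 1914, 1764, and 1531 CPM (WT) and 3169, 2914, and 3276 CPM (TNF-Tg).

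Markers of other cell types were summed over whole lists, which hold 5 endothelial, 3 pericyte, and 4 *Col14a1* fibroblast genes that the definition itself limits, so those sums are low in part by choice. The 15 endothelial genes came to 244, 456, and 212 CPM (WT) and 237, 259, and 115 CPM (TNF-Tg), against 16779.6, 16915, and 17855 CPM and 12874, 9463, and 7083 CPM in the other kept cells, with *Tmem100* the most abundant here in WT and *Plvap* in TNF-Tg libraries. The 14 immune genes came to 10.7, 22.0, and 12.2 CPM (WT) and 87.6, 104, and 538 CPM (TNF-Tg), against 959, 834, and 952 CPM and 1349, 2009, and 3838 CPM in the other kept cells. Their sum was higher in every TNF-Tg library, most in that at 20 weeks, where the most abundant gene *Lyz2* had 228 UMIs, of which 1 cell held 76.8%. *Ptprc*, which defines leukocytes, was at 0 in 5 libraries and had 14 UMIs in the TNF-Tg library at 20 weeks, and the T cell gene *Cd3e* was at 0 in all 6. The 9 pericyte genes came to 414, 381, and 332 CPM (WT) and 596, 1117, and 817 CPM (TNF-Tg), with *Postn* the most abundant in TNF-Tg and *Kcnk3* or *Gucy1a1* in WT libraries, and *Higd1b*, one of those the definition limits, was at 0 in all 6. The 12 epithelial genes came to 51.9, 22.0, and 11.5 CPM (WT) and 29.9, 79.0, and 15.4 CPM (TNF-Tg), with *Scgb1a1* the most abundant by its mean, at most 51.1 CPM, and *Epcam* and *Foxj1* at 0 in all libraries. The 7 mesothelial genes came to 255, 22.0, and 1.53 CPM (WT) and 122, 285, and 85.4 CPM (TNF-Tg), with *Msln* the most abundant by its mean over libraries and *Upk3b* the higher of the pair in TNF-Tg at 14 weeks, at 96.1 against 15.5 CPM. Their sum was higher in TNF-Tg than in WT at 14 and 20 weeks and lower at 8 weeks. The 10 *Col13a1* fibroblast genes came to 817, 1201, and 500.4 CPM (WT) and 585, 1142, and 468 CPM (TNF-Tg), with *Limch1* the most abundant by its mean, and the 11 *Col14a1* fibroblast genes came to 2357, 2007, and 2125 CPM (WT) and 1762, 1226, and 904 CPM (TNF-Tg), with *Dcn* the most abundant and the genotypes apart. The 5 erythroid genes came to 273, 33.0, and 8.4 CPM (WT) and 129, 4.65, and 46.2 CPM (TNF-Tg), and the 6 cartilage genes reached 153 CPM in TNF-Tg at 8 weeks and at most 4.12 CPM elsewhere. The part of these transcripts in the results below was not tested, except that fits without the cells holding a UMI of *Ptprc*, *Cd74*, *Lyz2*, or *Cd52* are given where they change a call. Such cells numbered 7, 13, and 10 in WT and 10, 23, and 26 in TNF-Tg libraries.

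**Figure D1:**
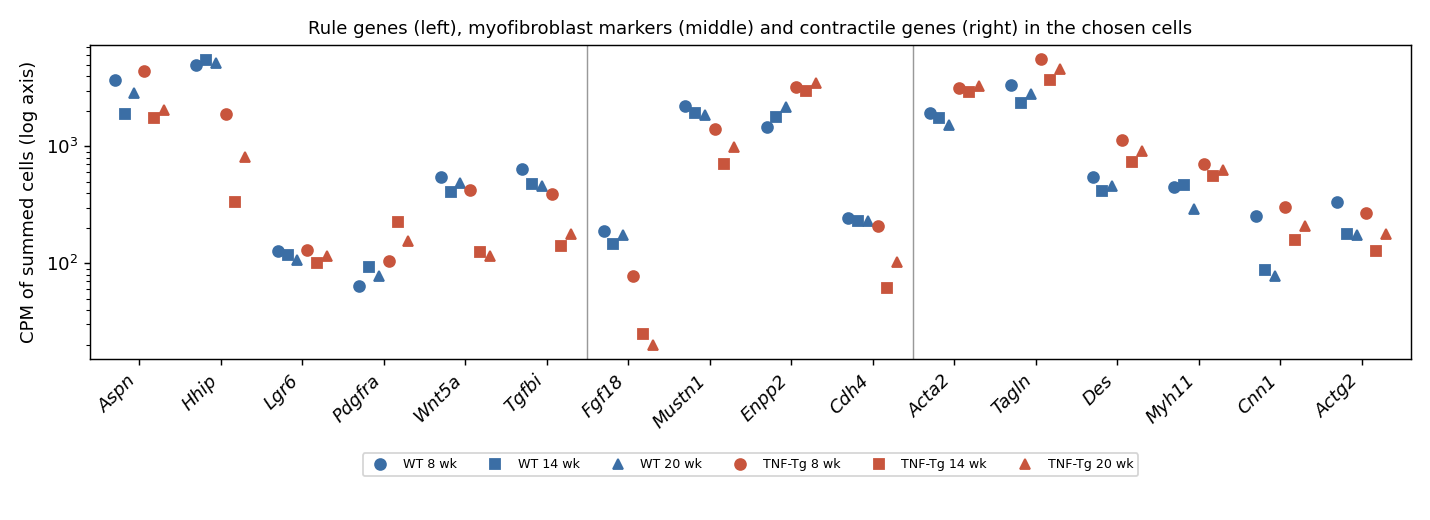
CPM (log axis) of the genes of the definition (left), myofibroblast markers outside it (middle), and contractile genes (right) in the summed cells of each library, with WT in blue, TNF-Tg in red, and the symbol giving the age. *Hhip* lay at 4939.6 to 5453 CPM (WT) and at 336 to 1874 CPM (TNF-Tg), while *Acta2* lay at 1531 to 1914 and 2914 to 3276 CPM.

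The cells took a smaller share of the sorted TNF-Tg lung. They made up 3.25, 2.0, and 2.73% of WT and 1.21, 0.928, and 1.15% of TNF-Tg kept cells, 2.66 ± 0.628% against 1.1 ± 0.149% (SD, n = 3). No TNF-Tg library reached the lowest WT library, and the two-sided exact permutation test over libraries gave p = 0.1, the smallest value that 3 against 3 allows. The 95% binomial interval by the exact Clopper-Pearson method, a measure of counting error alone, ran from 1.66 to 2.38% for the lowest WT library and from 0.962 to 1.51% for the highest TNF-Tg library. With every cell thinned to 2000 UMIs and the definition applied again, the shares were 3.03, 1.64, and 1.99% of WT and 0.802, 0.396, and 0.385% of TNF-Tg cells. Of the 209, 121, and 190 WT cells, 171, 89, and 128 still met the definition. Of the 80, 54, and 73 TNF-Tg cells, 48, 16, and 22 did. Fits with cells thinned also used cells chosen again, whereas percentages of cells with a UMI after thinning refer to cells chosen before it. How far membership of TNF-Tg cells rests on their greater depth was not tested further. Among 5 mesenchymal classes (these cells, *Col13a1* fibroblasts, *Col14a1* fibroblasts, smooth muscle, and pericytes, each chosen by marker genes), they took 29.8, 27.4, and 38.9% of WT and 29.6, 11.6, and 10.3% of TNF-Tg cells. In the pericyte class *Higd1b* was at 1097, 1534, and 1431 CPM (WT) and 932, 71.9, and 73.2 CPM (TNF-Tg). *Acta2* there was at 4272, 1116, and 992 CPM (WT) and 6518, 8573, and 9404 CPM (TNF-Tg). The name of that class is therefore uncertain in TNF-Tg at 14 and 20 weeks. The libraries at 8 weeks were close in the share among the 5 classes, those of TNF-Tg at 14 and 20 weeks lay below all WT libraries, the groups overlapped, and the exact permutation p was 0.20. Cells that met more than 1 class rule were left out. With them in the denominator, the shares were 25.2, 23.1, and 31.2% (WT) and 17.6, 6.83, and 7.6% (TNF-Tg). These did not overlap (exact permutation p = 0.1). With only the 2 fibroblast classes beside these cells, the shares were 33.0, 32.0, and 45.8% (WT) and 36.7, 22.4, and 15.6% (TNF-Tg). These overlapped (exact permutation p = 0.3). With every cell thinned the mesenchymal shares were 25.8, 21.9, and 27.7% of WT and 14.0, 3.17, and 3.6% of TNF-Tg cells, which did not overlap (exact permutation p = 0.1). The share of kept cells depends on how many cells of other kinds were in the library, and since *Hhip* itself was lower in TNF-Tg cells, fewer cells of the type and fewer cells passing the definition cannot be told apart.

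**Figure D2:**
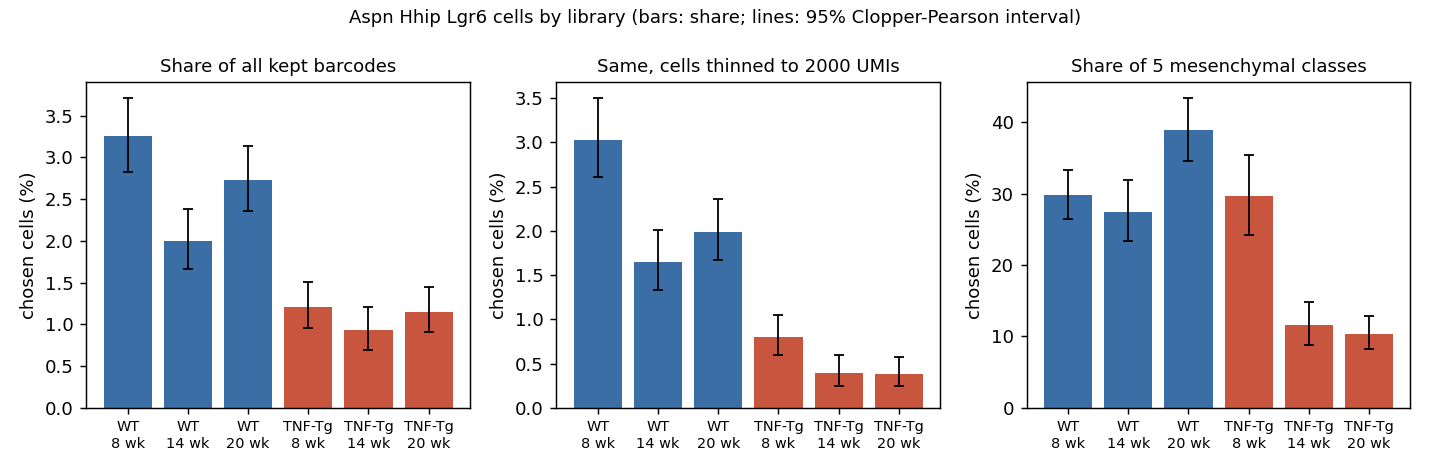
Share (%) of these cells among all kept cells, the same after thinning each cell to 2000 UMIs, and among 5 mesenchymal classes, for each library, with 95% Clopper-Pearson intervals as lines. Of all kept cells the share was 2.0 to 3.25% in WT and 0.928 to 1.21% in TNF-Tg libraries, while the mesenchymal share at 8 weeks was 29.8% and 29.6%.

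Between the 3 TNF-Tg and the 3 WT libraries, edgeR's quasi-likelihood test called 714 of 8547 genes (8.35%) at a false discovery rate (FDR) under 0.05. In TNF-Tg cells 397 were higher (4.64%) and 317 lower (3.71%). Of the 15 leading genes 6 were called lower, 7 were not called, and *Enpp2* and *Csmd1* (1.07, FDR 0.0159) were called higher by edgeR. *Csmd1*, *Scx*, and *Rgs2* each lost the call without 3 or 4 of the 6 libraries in turn and with all 3 core genes required, *Csmd1* also at equal depth, and *Rgs2* also with cells thinned and without Hhip-negative cells (FDR 0.0503 to 0.384). The median log2 fold change of all tested genes was -0.01. Libraries of the genotypes did not overlap in CPM for 2301 genes (26.9%). Gene lists are described by their counts and medians beside these shares and this median. In every list described as having no member lower or no member higher, at most 1 member had an unadjusted p under 0.05 in that direction, and DESeq2 called none. Some genes described without a call were named by the rules given below, and others were added after their values were seen, for their known role. The called genes *Nfkbia*, *Tnfrsf1b*, *B2m*, and *Bmp4* are also described outside those rules, and their calls under other settings are not given. Other settings are given where a named call was lost or a count moved by more than 1.5 times. For some genes they are also given where a call was gained or a log2 fold change moved. They were fits without 1 library, with each cell thinned to 2000 UMIs (2368 genes tested), with all 3 core genes required of a cell, without Hhip-negative cells, without cells holding an immune UMI, without high-UMI cells (above 2 times their library's median), under a stricter cell filter, with library sums thinned to equal depth, at 14 and 20 weeks alone, and by DESeq2. Of 104 named genes with a call, 71 kept it whichever library was left out, 33 lost it without at least 1 library, and none changed sign.

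**Figure D3:**
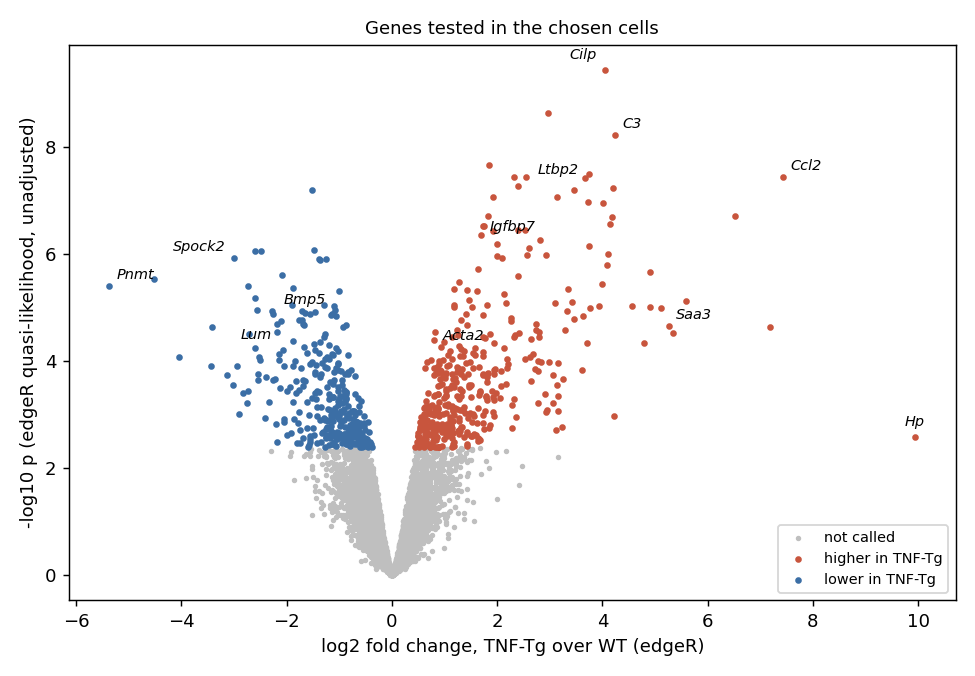
Log2 fold change of TNF-Tg over WT (horizontal) against -log10 of the unadjusted edgeR p (vertical) for the genes tested, with red for genes called higher in TNF-Tg, blue for lower, and gray for not called. *Ccl2* and *C3* stand at the right with log2 fold changes of 7.43 and 4.24, and *Pnmt* and *Spock2* at the left with -5.37 and -3.01.

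Of 21 tested TNF receptor and NF-kB genes, 15 rose and none fell, with a median log2 fold change of 1.30. *Tnfaip3*, which encodes the ubiquitin-editing inhibitor A20, was at 6.4, 2.75, and 13.8 CPM (WT) and 84.5, 97.6, and 167 CPM (TNF-Tg). All TNF-Tg libraries were above all WT libraries, with a log2 fold change of 3.74 (SE 0.38, edgeR FDR 0.000208). The adhesion molecule *Vcam1* was at 24.9, 35.7, and 29.0 CPM (WT) and 205, 446, and 349.8 CPM (TNF-Tg), again without overlap, and rose by 3.46 (SE 0.28, edgeR FDR 4.31e-05) on the log2 scale. The inhibitor *Nfkbie* rose by 3.10 (SE 0.40, FDR 0.00108), and the inhibitor *Nfkbia*, at 254, 149.8, and 247 CPM (WT) and 841, 759, and 953 CPM (TNF-Tg), by 1.92 (SE 0.18, FDR 0.000125), both by edgeR. *Tnfaip2*, a gene induced by TNF, was at 3.55, 5.5, and 3.06 CPM (WT) and 22.7, 129, and 189.7 CPM (TNF-Tg) and had a log2 fold change of 4.79 (SE 0.75, edgeR FDR 0.00294). Of the TNF receptors, *Tnfrsf1b* was called, with 1.81 (SE 0.34, edgeR FDR 0.00782), and *Tnfrsf1a*, at 95.2, 106, and 83.3 CPM (WT) and 103, 105, and 111 CPM (TNF-Tg), was not, with 0.14 (SE 0.15, edgeR FDR 0.672). *Rela* was at 49.0, 48.1, and 78.7 CPM (WT) and 63.9, 88.3, and 85.4 CPM (TNF-Tg), with 0.36 (SE 0.22, edgeR FDR 0.386). The remaining called members were *Tnip1*, *Birc3*, *Relb*, *Nfkb2*, *Birc2*, *Sod2*, *Icam1*, *Nfkb1*, and *Ikbkb*. Summed immune markers were also higher in TNF-Tg libraries, as given above, and 14 members rose when cells holding an immune UMI were left out. The part of immune RNA in the remaining cells was not tested. Members called higher numbered 6 with cells thinned and 9 with all 3 core genes required.

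Acute phase and complement genes rose in 10 of 15 tested members, with none lower and a median log2 fold change of 1.85. *C3* (chr17:57203970-57228136), the central complement component, was at 102, 181, and 249 CPM (WT) and 2994, 3893, and 3442 CPM (TNF-Tg). The lowest TNF-Tg library was above the highest WT library, and the log2 fold change was 4.24 (SE 0.27, edgeR FDR 1.75e-05). UMIs of *C3* were found in 15.3, 22.3, and 18.4% of WT and 90, 94.4, and 97.3% of TNF-Tg cells. After thinning to 2000 UMIs the shares were 8.13, 11.7, and 12.8% and 82.5, 92.6, and 95.9%, against 1.04, 4.04, and 0.962% and 1.39, 7.8, and 6.22% of equally thinned endothelial cells. *Serpina3n*, a protease inhibitor, rose by 2.79 (SE 0.42, edgeR FDR 0.00216) on the log2 scale. *Saa3* and *Hp* differ from *C3* in that few cells held most of their UMIs. *Saa3*, serum amyloid A3, was at 0, 0, and 60.3 CPM (WT) and 888, 871, and 876 CPM (TNF-Tg) and had a log2 fold change of 5.26 (SE 0.76, edgeR FDR 0.00179). Its UMIs lay in 8, 10, and 17 TNF-Tg cells, and 1 cell held 77.8, 55.5, and 96.6% of them. In the WT library at 20 weeks 1 cell held 78 of the 79 UMIs of *Saa3*. Without 1 library the log2 fold change of *Saa3* ranged from 4.61 to 12.6. *Hp*, haptoglobin, had no UMI in WT and 20, 238, and 13 UMIs in TNF-Tg libraries, in 2, 4, and 2 cells. Against the level that 3 UMIs over all WT cells would give, 0.871 CPM, the pooled TNF-Tg level of 110.2 CPM is 126.5-fold higher. Without the TNF-Tg library at 14 weeks, which holds 238 of the 271 UMIs, the pooled level is 18.2 CPM, or 20.9-fold higher. These ratios take no account of how few cells held the UMIs. The call of *Hp* (edgeR FDR 0.0362) is a test over libraries and not of these ratios. The other called members were *C1s1*, *Cfb*, *C1ra*, *Cp*, *C4b*, and *Serping1*. *Saa3* lost its call by DESeq2 and without cells holding an immune UMI (adjusted p 0.106 to 0.235), and *Hp* without any 1 WT library (FDR 0.089 to 0.118). Listed genes called higher came to 6 with cells thinned.

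Among chemokines, 4 of 8 tested rose and none fell, with a median log2 fold change of 2.15. *Ccl2* (chr11:82035571-82037453), which recruits monocytes, was at 0, 1.37, and 5.35 CPM (WT) and 562, 515, and 224 CPM (TNF-Tg). Its UMIs lay in 0, 0.826, and 1.58% of WT and 22.5, 37.0, and 34.2% of TNF-Tg cells. After thinning to 2000 UMIs the shares were 0, 0.833, and 0% and 18.8, 20.4, and 13.7%, against 0.0417, 0.0618, and 0% and 0.815, 2.64, and 3.53% of equally thinned endothelial cells. The log2 fold change was 7.43 (SE 0.57, edgeR FDR 3.72e-05). *Ccl19*, a ligand of CCR7, was at 29.8, 26.1, and 57.3 CPM (WT) and 125, 318, and 174 CPM (TNF-Tg) and rose by 2.34 (SE 0.35, edgeR FDR 0.0023). *Cxcl16* rose by 1.92 (SE 0.16, FDR 5.07e-05) and the stromal chemokine *Cxcl12* by 1.80 (SE 0.33, FDR 0.00669) on the log2 scale by edgeR, and neither overlapped between genotypes. *Ccl7* overlapped, at 0, 1.37, and 138 CPM (WT) and 354, 335, and 129 CPM (TNF-Tg), because the WT library at 20 weeks lay above the TNF-Tg library at that age, and it was not called, with 2.42 (SE 0.90, edgeR FDR 0.141). Only 4 cells held the 180 UMIs of that library, 101 of them in 1 cell, and without the top cell of each library *Ccl7* was at 0, 0, and 60.3 CPM (WT) and 269, 105, and 109 CPM (TNF-Tg), with the genotypes apart. Without the WT library at 20 weeks *Ccl7* was called (8.77, FDR 0.000998), as it was without high-UMI cells. *Cxcl12* lost its call with all 3 core genes required (FDR 0.0748). Counted the same way, higher calls came to 7 without high-UMI cells.

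The sequences before 4 of the most increased genes show which short motifs of inflammatory transcription factors stand next to their starts. The 24 genes with the largest changes were taken among called genes with a mean of 50 CPM or more in 1 genotype. Of these, 14 were in the promoter table of RefSeq (GRCm38.p6), and the 4 with the largest rises among them are printed, the 250 bases before the start, 5′ to 3′ on the gene's strand. They are *H2-Q6* (chr17:35424600-35424849, plus strand), *Saa3* (chr7:46715677-46715926, minus strand), *Tnfaip2* (chr12:111442411-111442660, plus strand), and *Cyp1b1* (chr17:79715062-79715311, minus strand). Capitals mark matches on either strand to the NF-kB consensus GGGRNNYYCC, TTGCNNAA (C/EBP), TTCNNNGAA (STAT), or AANNGAAA (IRF). R stands for A or G, Y for C or T, and N for any base.
H2-Q6: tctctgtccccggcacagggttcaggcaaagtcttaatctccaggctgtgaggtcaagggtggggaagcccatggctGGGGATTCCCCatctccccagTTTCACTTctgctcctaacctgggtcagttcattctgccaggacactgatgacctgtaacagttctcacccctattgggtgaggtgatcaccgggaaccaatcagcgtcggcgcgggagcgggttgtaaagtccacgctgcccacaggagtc
Saa3: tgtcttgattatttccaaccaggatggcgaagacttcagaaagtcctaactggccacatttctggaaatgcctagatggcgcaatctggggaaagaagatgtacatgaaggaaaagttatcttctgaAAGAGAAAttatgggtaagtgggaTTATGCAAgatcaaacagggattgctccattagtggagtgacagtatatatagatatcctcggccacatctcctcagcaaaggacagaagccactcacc
Tnfaip2: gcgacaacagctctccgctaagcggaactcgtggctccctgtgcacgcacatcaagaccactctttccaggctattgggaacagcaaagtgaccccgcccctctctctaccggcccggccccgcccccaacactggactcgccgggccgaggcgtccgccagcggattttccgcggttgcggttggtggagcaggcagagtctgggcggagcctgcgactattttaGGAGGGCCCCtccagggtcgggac
Cyp1b1: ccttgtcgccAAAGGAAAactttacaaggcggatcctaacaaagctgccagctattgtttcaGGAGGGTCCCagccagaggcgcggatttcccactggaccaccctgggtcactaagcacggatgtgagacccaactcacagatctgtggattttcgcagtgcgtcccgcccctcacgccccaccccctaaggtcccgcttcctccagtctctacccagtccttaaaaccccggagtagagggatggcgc
The NF-kB consensus matched *H2-Q6* in overlapping frames, GGGGATTCCC and GGGATTCCCC, each on both strands, the first beginning 173 bases before the start. An IRF match, TTTCACTT, lay on its minus strand 152 bases before the start. *Saa3* held a C/EBP match, TTATGCAA, on its minus strand 99 bases before the start and an IRF match, AAGAGAAA, 123 bases before it. *Tnfaip2* held 1 NF-kB match, GGAGGGCCCC, on its minus strand 24 bases before the start. These starts are those of RefSeq. In the annotation used for the whole-gene positions given here, *Tnfaip2* starts at chr12:111442469, within the printed sequence and before this match. By that annotation *Saa3* starts at chr7:46715700, within its printed sequence and after both of its matches. *Cyp1b1* held an NF-kB match, GGAGGGTCCC, on its minus strand 188 bases before the start and an IRF match, AAAGGAAA, 240 bases before it. No STAT match was found in the 4 sequences, and matches to different motifs did not overlap. Over all 32851 promoters of this length, 7.25% held NF-kB, 9.56% held C/EBP, 7.02% held STAT, and 21.3% held IRF letters. A match of letters is a description and not a binding site. The NF-kB and IRF letters were widened after narrower forms had been searched in these promoters, so their matches depend on that choice.

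Interferon response and antigen presentation genes rose in 16 of 34 tested members and none fell, with a median log2 fold change of 0.91. The interferon-inducible GTPase gene *Ifi47* was at 2.84, 1.37, and 3.82 CPM (WT) and 39.2, 51.1, and 73.5 CPM (TNF-Tg), with a log2 fold change of 4.14 (SE 0.38, edgeR FDR 0.000112). *H2-K1*, a classical class I heavy chain, was at 269, 320.3, and 298 CPM (WT) and 1109, 1803, and 1634 CPM (TNF-Tg) and rose by 2.31 (SE 0.18, edgeR FDR 3.72e-05). Its light chain *B2m* was at 599, 729.9, and 743 CPM (WT) and 1837, 2805, and 2529 CPM (TNF-Tg) and rose by 1.74 (SE 0.16, edgeR FDR 0.000116). Neither gene overlapped between genotypes. *Ifi27l2a*, at 61.1, 82.5, and 25.2 CPM (WT) and 107, 553, and 211 CPM (TNF-Tg), rose by 2.35 (SE 0.54, edgeR FDR 0.0208). *Ifitm1*, *Irf8*, *H2-Q4*, *H2-D1*, *Isg15*, *Psmb9*, *Bst2*, *Psmb10*, *Tapbp*, *Psmb8*, and *Irf1* were also called. Counts of H2 genes are uncertain where near-identical copies share reads. *Ifi27l2a* lost its call without WT at 8 and 20 weeks or TNF-Tg at 14 weeks and by DESeq2 (adjusted p 0.0556 to 0.0973). For this list, higher calls numbered 8 with cells thinned and 10 without WT at 8 weeks.

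Of 13 tested IL-6 and IL-1 family genes, 5 rose, namely *Il33*, *Jak2*, *Csf1*, *Il6st*, and *Osmr*, and none fell, with a median log2 fold change of 0.37. *Il6* itself had no UMI in these cells in any library. *Csf1*, a macrophage growth factor, was at 29.8, 33.0, and 55.8 CPM (WT) and 79.4, 139, and 122 CPM (TNF-Tg) and rose by 1.44 (SE 0.26, edgeR FDR 0.0062). *Il6st*, the signaling receptor shared by the IL-6 family, was at 109, 92.1, and 112 CPM (WT) and 198, 262, and 276 CPM (TNF-Tg) and rose by 1.17 (SE 0.15, edgeR FDR 0.00111). *Il33*, an alarmin, was at 2.13, 2.75, and 13.8 CPM (WT) and 15.5, 72.8, and 74.7 CPM (TNF-Tg), with 2.93 (SE 0.65, edgeR FDR 0.0186). All 3 genes were higher in each TNF-Tg than in each WT library. *Il33* lost its call without WT at 8 and 14 weeks or TNF-Tg at 14 and 20 weeks, at equal depth, and without cells holding an immune UMI (FDR 0.0661 to 0.0845), and *Jak2* without WT at 20 weeks (FDR 0.0611). Members called higher numbered 1 with cells thinned and 3 without WT at 8, 14, and 20 weeks or TNF-Tg at 14 and 20 weeks and with all 3 core genes required.

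Outside these lists, the largest rises at a mean of 50 CPM or more in 1 genotype included enzymes and matrix proteins. *Slc15a3*, a lysosomal peptide transporter, had 2 UMIs in all WT cells together and 162 in TNF-Tg cells, a ratio of 113 (exact 95% counting interval 30.9 to 945, edgeR FDR 8.76e-05). *Cyp1b1*, a cytochrome P450, was at 5.69, 1.37, and 0.764 CPM (WT) and 29.9, 97.6, and 96.0 CPM (TNF-Tg) and had a log2 fold change of 4.56 (SE 0.60, edgeR FDR 0.00111). *Mmp3*, stromelysin 1, was at 16.3, 15.1, and 11.5 CPM (WT) and 152, 299, and 374 CPM (TNF-Tg) and rose by 4.20 (SE 0.34, edgeR FDR 4.31e-05). *Cilp* (chr9:65265180-65280605), a secreted matrix protein first described in cartilage, was at 39.1, 35.7, and 26.0 CPM (WT) and 489, 699, and 539.5 CPM (TNF-Tg). It rose by 4.05 (SE 0.20, edgeR FDR 3.17e-06), and its UMIs were in 4.78, 3.33, and 1.6% of WT and 46.2, 66.7, and 58.9% of TNF-Tg cells after thinning, against at most 0.403% of thinned endothelial cells. *H2-Q6* and *H2-Q7*, nonclassical class I genes with near-identical sequences, rose by 5.35 (SE 0.80, FDR 0.00222) and 4.18 (SE 0.38, FDR 8.76e-05), values that are uncertain because reads of one can be counted for the other. No gene of this paragraph overlapped between genotypes.

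Among called genes with a mean of 50 CPM or more in 1 genotype, the 12 largest falls were led by *Pnmt* and *Spock2*. *Pnmt* (chr11:98386450-98388181), which converts norepinephrine to epinephrine, was at 107, 38.5, and 105 CPM (WT) and 5.15, 0, and 0 CPM (TNF-Tg), with a log2 fold change of -5.37 (SE 0.65, edgeR FDR 0.000646). Cells with a UMI of *Pnmt* made up 24.4, 13.2, and 23.2% of WT and 3.75, 0, and 0% of TNF-Tg cells. The TNF-Tg libraries held 5, 0, and 0 UMIs of *Pnmt*, so the size of its change rests on a group near 0. Without 1 library its log2 fold change ranged from -9.44 to -4.78. *Spock2*, a proteoglycan of the testican family, was at 144, 173, and 132 CPM (WT) and 30.9, 17.0, and 7.11 CPM (TNF-Tg) with a log2 fold change of -3.01 (SE 0.32, edgeR FDR 0.000258). *Ngb*, neuroglobin, was at 71.1, 88.0, and 92.4 CPM (WT) and 28.9, 6.2, and 0 CPM (TNF-Tg), with -2.74 (SE 0.55, edgeR FDR 0.0103). Without 1 library the log2 fold change of *Ngb* ranged from -4.94 to -2.13. *Efnb2*, the membrane ligand ephrin-B2, was at 301, 261, and 404 CPM (WT) and 72.1, 62.0, and 29.6 CPM (TNF-Tg), with -2.60 (SE 0.27, edgeR FDR 0.000227). *Fxyd6*, a regulator of the sodium pump, and *Hpgd*, which inactivates prostaglandins, had log2 fold changes of -2.49 (SE 0.26, FDR 0.000227) and -2.19 (SE 0.33, FDR 0.00216). In all of these the TNF-Tg libraries lay below the WT libraries. Others of the 12 were *Ppl* (-2.61), the clock repressor *Nr1d1* (-2.33), *Kctd16* (-2.28), and *Lum*. *Ngb* lost its call by DESeq2 and with all 3 core genes required (adjusted p 0.167 to 0.29), and *Nr1d1* without TNF-Tg at 14 weeks (FDR 0.0552).

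**Figure D4:**
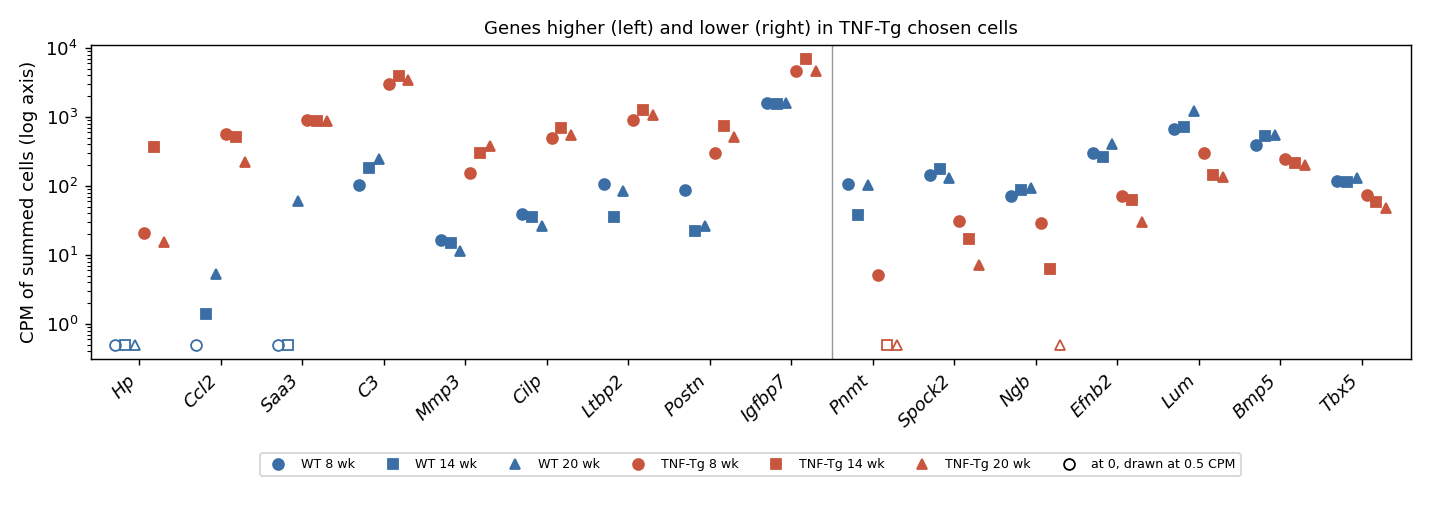
CPM (log axis) of 9 genes higher (left) and 7 lower (right) in TNF-Tg cells, by library, with WT in blue, TNF-Tg in red, and the symbol giving the age. Hollow symbols are libraries at 0, drawn at 0.5 CPM. *C3* lay at 102 to 249 CPM (WT) and 2994 to 3893 CPM (TNF-Tg), and *Spock2* at 132 to 173 and 7.11 to 30.9 CPM.

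Of 7 tested markers of these cells that the definition did not use, 4 fell, *Fgf18*, *Tgfbr3*, and *Mustn1* among them, and *Enpp2* rose, with a median log2 fold change of -1.18. *Fgf18* had a log2 fold change of -2.04 (SE 0.36, edgeR FDR 0.00524), with the libraries apart and the TNF-Tg library at 8 weeks nearest to WT. *Tgfbr3*, the TGF-beta coreceptor betaglycan, was at 347, 415, and 411 CPM (WT) and 166, 130.2, and 168 CPM (TNF-Tg), with -1.37 (SE 0.15, edgeR FDR 0.000258). *Mustn1*, a nuclear protein of muscle and skeleton, was at 2229.9, 1941, and 1837 CPM (WT) and 1394, 709.9, and 978 CPM (TNF-Tg), with -1.0 (SE 0.21, edgeR FDR 0.0126). *Enpp2*, which makes lysophosphatidic acid, was at 1462, 1766, and 2157 CPM (WT) and 3189, 2971, and 3484 CPM (TNF-Tg) and rose by 0.80 (SE 0.15, edgeR FDR 0.00634). *Cdh4* was at 244, 229.6, and 232 CPM (WT) and 209, 62.0, and 103 CPM (TNF-Tg) and was not called, with -0.92 (SE 0.31, edgeR FDR 0.106), but it was called lower without TNF-Tg at 8 weeks (-1.54, FDR 0.000194), at 14 and 20 weeks alone, and by DESeq2. The groups did not overlap for any of these 5 genes. *Fgf18* lost its call with cells thinned (FDR 0.0768), and *Mustn1* without WT at 8 weeks or TNF-Tg at 20 weeks (FDR 0.0521 to 0.0572).

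Among 27 tested BMP pathway genes, 6 fell and 1 rose, with a median log2 fold change of -0.23. Of the ligands, *Bmp5* was at 391, 522, and 542 CPM (WT) and 249, 212, and 204 CPM (TNF-Tg), with -1.17 (SE 0.16, edgeR FDR 0.0013). *Bmp4* was at 115, 126, and 105 CPM (WT) and 73.2, 68.2, and 42.7 CPM (TNF-Tg), with -0.95 (SE 0.20, edgeR FDR 0.0143). *Bmp3*, an inhibitory ligand, was at 104, 52.2, and 42.8 CPM (WT) and 165, 166, and 187 CPM (TNF-Tg) and rose by 1.30 (SE 0.27, edgeR FDR 0.0116). The antagonist *Nog*, noggin, was at 24.2, 22.0, and 31.3 CPM (WT) and 9.28, 1.55, and 4.74 CPM (TNF-Tg), with -2.23 (SE 0.42, edgeR FDR 0.0070). Of the receptors, the type II receptor *Acvr2a* was at 56.1, 46.7, and 55.0 CPM (WT) and 13.4, 21.7, and 17.8 CPM (TNF-Tg), with -1.66 (SE 0.23, edgeR FDR 0.00129), and the coreceptor *Rgma* was at 46.9, 56.4, and 48.9 CPM (WT) and 30.9, 10.8, and 5.93 CPM (TNF-Tg), with -1.61 (SE 0.40, edgeR FDR 0.0287). None of these genes overlapped between genotypes. *Bmp3* lost its call without WT at 14 weeks and with cells thinned (FDR 0.058 to 0.0614), and *Rgma* without WT at 8, 14, and 20 weeks or TNF-Tg at 14 and 20 weeks, with all 3 core genes required, and without cells holding an immune UMI (FDR 0.0643 to 0.259). Listed genes called lower came to 2 with cells thinned.

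The TGF-beta list was divided, with 4 of 20 tested genes higher and 2 lower and a median log2 fold change of 0.02. *Ltbp2* (chr12:84783212-84876532), a microfibril-associated protein of the latent TGF-beta binding family, was at 106, 35.7, and 85.6 CPM (WT) and 902, 1277, and 1057 CPM (TNF-Tg). It rose by 3.73 (SE 0.28, edgeR FDR 3.72e-05), and after thinning its UMIs were in 10.0, 5.0, and 10.6% of WT and 61.2, 79.6, and 75.3% of TNF-Tg cells, against 0.584, 0.762, and 0.455% and 0.408, 2.2, and 4.56% of endothelial cells. *Ltbp4*, of the same family, went the other way, at 867, 884, and 916 CPM (WT) and 466, 559.5, and 413 CPM (TNF-Tg), with -0.94 (SE 0.14, edgeR FDR 0.00179). The ligands *Tgfb1* and *Tgfb2* rose by 1.48 (SE 0.29, FDR 0.00862) and 1.14 (SE 0.28, FDR 0.0287), and *Ltbp1* by 0.58 (SE 0.16, FDR 0.0426). *Tgfbr3* was the other gene that fell, and the signaling receptors *Tgfbr1* and *Tgfbr2* were not called, with -0.58 (SE 0.21, FDR 0.119) and 0.29 (SE 0.19, FDR 0.429) by edgeR. *Tgfb1* lost its call with all 3 core genes required (FDR 0.0874), and *Tgfb2* without WT at 14 and 20 weeks or TNF-Tg at 20 weeks, with cells thinned, and with all 3 core genes required (FDR 0.0562 to 0.134). *Ltbp1* lost its call without WT at 8, 14, and 20 weeks or TNF-Tg at 14 and 20 weeks, by DESeq2, with cells thinned, under the stricter filter, with all 3 core genes required, at equal depth, without cells holding an immune UMI, and without Hhip-negative cells (adjusted p 0.0518 to 0.811). With cells thinned the log2 fold change of *Ltbp1* turned to -0.27. Counted the same way, higher calls came to 1 with cells thinned and with all 3 core genes required and 2 without WT at 14 and 20 weeks or TNF-Tg at 20 weeks. For this list, lower calls numbered 4 at 14 and 20 weeks alone and 5 without TNF-Tg at 8 weeks.

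In the WNT list 4 of 21 tested genes fell and none rose, with a median log2 fold change of -0.37. The 4 are negative feedback genes of the canonical pathway, *Notum*, *Znrf3*, *Nkd1*, and *Axin2*. *Notum*, a secreted enzyme that inactivates WNT ligands, was at 28.4, 23.4, and 31.3 CPM (WT) and 6.18, 0, and 7.11 CPM (TNF-Tg), with -2.55 (SE 0.47, edgeR FDR 0.0062). *Nkd1* was at 111, 83.9, and 104 CPM (WT) and 75.2, 35.6, and 35.6 CPM (TNF-Tg), with -1.04 (SE 0.26, edgeR FDR 0.0324). No library of one genotype entered the range of the other for these 4 genes. *Wnt11*, a leading gene of the cells, was at 151, 71.5, and 98.5 CPM (WT) and 201, 149, and 133 CPM (TNF-Tg) and was not called. *Nkd1* lost its call without WT at 8, 14, and 20 weeks or TNF-Tg at 14 and 20 weeks, with cells thinned, with all 3 core genes required, without high-UMI cells, and without cells holding an immune UMI (FDR 0.0505 to 0.532), and *Znrf3* without each library in turn, by DESeq2, at 14 and 20 weeks alone, under the stricter filter, and without Hhip-negative cells (adjusted p 0.0565 to 0.29). *Axin2* lost its call without WT at 14 and 20 weeks or TNF-Tg at 14 and 20 weeks, by DESeq2, with cells thinned, with all 3 core genes required, without cells holding an immune UMI, and without Hhip-negative cells (adjusted p 0.0661 to 0.289). Members called lower numbered 0 with cells thinned and with all 3 core genes required, 1 without WT at 14 weeks or TNF-Tg at 14 weeks, and 2 without WT at 20 weeks or TNF-Tg at 20 weeks, by DESeq2, without cells holding an immune UMI, and without Hhip-negative cells.

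None of 7 tested hedgehog genes was called by edgeR or DESeq2, 1 had an unadjusted edgeR p under 0.05, and the median log2 fold change was -0.14. *Ptch1*, the receptor that is also a target of the pathway, was at 146, 143, and 111 CPM (WT) and 164, 80.6, and 56.9 CPM (TNF-Tg), with -0.41 (SE 0.31, edgeR FDR 0.501). The TNF-Tg library at 8 weeks was the highest of the 6 and that at 20 weeks the lowest, and *Ptch1* was called lower without the former (-1.02, FDR 0.00699) and at 14 and 20 weeks alone. *Gli1*, a further target, was at 16.3, 19.2, and 9.93 CPM (WT) and 17.5, 10.8, and 11.9 CPM (TNF-Tg). Listed genes called lower came to 2 without TNF-Tg at 8 weeks and at 14 and 20 weeks alone. *Hhip*, also a hedgehog target, belongs to the definition and was not tested.

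Growth factor genes moved in both directions, with 3 of 20 tested higher and 4 lower and a median log2 fold change of 0.12. *Fgf1* was at 2.84, 4.12, and 1.53 CPM (WT) and 15.5, 31.0, and 37.9 CPM (TNF-Tg) and rose by 3.29 (SE 0.49, edgeR FDR 0.00203). *Pdgfa* was at 57.6, 39.9, and 53.5 CPM (WT) and 94.8, 130.2, and 117 CPM (TNF-Tg) and rose by 1.10 (SE 0.18, edgeR FDR 0.00365), and *Vegfc*, the lymphatic growth factor, was the third called higher, with 1.37 (SE 0.36, edgeR FDR 0.0367). Beside *Fgf18*, the endothelin receptors *Ednra* and *Ednrb* and the epithelial growth factor *Fgf7* fell. *Ednra* was at 185, 194, and 149.7 CPM (WT) and 103, 68.2, and 72.3 CPM (TNF-Tg), with -1.14 (SE 0.19, edgeR FDR 0.00401), and *Fgf7* was at 195, 198, and 160.4 CPM (WT) and 129.9, 79.0, and 121 CPM (TNF-Tg), with -0.77 (SE 0.18, edgeR FDR 0.0262). *Pdgfa* lost its call with all 3 core genes required (FDR 0.439), and *Vegfc* without WT at 8 and 14 weeks or TNF-Tg at 14 and 20 weeks, at 14 and 20 weeks alone, with all 3 core genes required, at equal depth, and without cells holding an immune UMI (FDR 0.0654 to 0.179). *Ednra* lost its call with cells thinned (FDR 0.44), and *Fgf7* without WT at 8 and 14 weeks or TNF-Tg at 14 and 20 weeks, with cells thinned, with all 3 core genes required, and without Hhip-negative cells (FDR 0.0662 to 0.573). *Ednrb* lost its call without WT at 8, 14, and 20 weeks or TNF-Tg at 14 and 20 weeks, by DESeq2, with all 3 core genes required, without high-UMI cells, without cells holding an immune UMI, and without Hhip-negative cells (adjusted p 0.0588 to 0.343). Counted the same way, higher calls came to 0 with cells thinned and with all 3 core genes required and 1 without cells holding an immune UMI. For this list, lower calls numbered 1 with cells thinned and 2 without WT at 8 and 14 weeks or TNF-Tg at 14 and 20 weeks, with all 3 core genes required, and without Hhip-negative cells.

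Of the IGF genes, 2 of 10 tested rose and 2 fell, all 4 of them binding proteins, and the median log2 fold change was -0.45. *Igfbp7*, a secreted protein of the vessel and stromal matrix, was at 1593, 1546, and 1593 CPM (WT) and 4579, 6922, and 4665 CPM (TNF-Tg) and rose by 1.73 (SE 0.16, edgeR FDR 0.000116). UMIs of *Igfbp7* were also seen in 39.0, 40.5, and 30.3% of WT and 79.7, 94.6, and 90.9% of TNF-Tg endothelial cells thinned to 2000 UMIs, and the part of such RNA in the result was not tested. *Igfbp2* was at 2.84, 0, and 1.53 CPM (WT) and 19.6, 29.4, and 39.1 CPM (TNF-Tg) and was called higher, by 3.94 (SE 0.52, edgeR FDR 0.00111). All 33 of its UMIs in the TNF-Tg library at 20 weeks lay in 1 cell, and without the top cell of each library the TNF-Tg levels were 9.28, 9.30, and 0 CPM, so that the genotypes overlap. *Igfbp5* was at 1818, 1137, and 2283 CPM (WT) and 463, 746, and 202 CPM (TNF-Tg), with -1.94 (SE 0.38, edgeR FDR 0.00896), and *Igfbp3* at 470.4, 654, and 895 CPM (WT) and 413, 174, and 296 CPM (TNF-Tg), with -1.22 (SE 0.29, edgeR FDR 0.0239). *Igfbp3* lost its call without WT at 14 and 20 weeks or TNF-Tg at 14 and 20 weeks, with cells thinned, with all 3 core genes required, and without cells holding an immune UMI (FDR 0.0581 to 0.115). Members called higher numbered 1 with cells thinned, with all 3 core genes required, without high-UMI cells, without cells holding an immune UMI, and without Hhip-negative cells. Listed genes called lower came to 1 without WT at 14 and 20 weeks or TNF-Tg at 14 and 20 weeks, with cells thinned, with all 3 core genes required, and without cells holding an immune UMI.

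Fibrillar and elastic matrix genes mostly showed no call, with 2 of 29 tested higher and 4 lower and a median log2 fold change of 0.24. *Postn*, periostin, was at 86.0, 22.0, and 26.0 CPM (WT) and 304, 747, and 515 CPM (TNF-Tg) and rose by 3.42 (SE 0.44, edgeR FDR 0.00107). The small proteoglycan *Bgn* was at 1435, 1171, and 1273 CPM (WT) and 2220.0, 3069, and 2054 CPM (TNF-Tg) and rose by 0.88 (SE 0.16, edgeR FDR 0.00616). *Lum*, a proteoglycan, was at 667, 723, and 1221 CPM (WT) and 302, 143, and 136 CPM (TNF-Tg), with -2.19 (SE 0.31, edgeR FDR 0.00171). *Fbln1*, fibulin 1, was at 225, 227, and 221 CPM (WT) and 81.4, 91.4, and 40.3 CPM (TNF-Tg), with -1.71 (SE 0.23, edgeR FDR 0.00121). *Col14a1* and *Dcn*, markers of *Col14a1* fibroblasts, were the others called lower, with -1.06 (SE 0.28, FDR 0.0354) and -0.78 (SE 0.20, FDR 0.0364), and the groups did not overlap for any of the 6. The collagen genes *Col1a1*, *Col1a2*, and *Col3a1* were not called, with 0.19 (SE 0.33, FDR 0.812), 0.78 (SE 0.25, FDR 0.0783), and -0.33 (SE 0.38, FDR 0.688), nor was elastin, *Eln*, at 1914, 544, and 925 CPM (WT) and 2713, 1293, and 550.2 CPM (TNF-Tg), with 0.40 (SE 0.51, edgeR FDR 0.729). *Postn* and *Bgn* lost their calls with all 3 core genes required (FDR 0.0586 to 0.117), and *Col14a1* without WT at 8, 14, and 20 weeks or TNF-Tg at 14 and 20 weeks, with cells thinned, under the stricter filter, with all 3 core genes required, without high-UMI cells, and without cells holding an immune UMI (FDR 0.059 to 0.19). *Dcn* lost its call without WT at 8, 14, and 20 weeks or TNF-Tg at 14 and 20 weeks, with cells thinned, under the stricter filter, with all 3 core genes required, and without cells holding an immune UMI (FDR 0.0649 to 0.361). With cells thinned the log2 fold change of *Dcn* turned to 0.34. Counted the same way, higher calls came to 1 with all 3 core genes required, 4 by DESeq2 and without Hhip-negative cells, 5 with cells thinned and without cells holding an immune UMI, 6 at 14 and 20 weeks alone, and 7 without TNF-Tg at 20 weeks and without high-UMI cells. For this list, lower calls numbered 2 without WT at 8, 14, and 20 weeks or TNF-Tg at 14 and 20 weeks, with cells thinned, under the stricter filter, with all 3 core genes required, and without cells holding an immune UMI and 8 without TNF-Tg at 8 weeks.

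In the basement membrane list, *Lama5*, *Itga2*, and *Hspg2* of 17 tested genes rose and *Lama4* fell, with a median log2 fold change of 0.29. The proteoglycan *Hspg2*, perlecan, was at 111, 81.1, and 74.9 CPM (WT) and 217, 175, and 181 CPM (TNF-Tg) and rose by 1.06 (SE 0.18, edgeR FDR 0.00414). *Lama5*, a laminin alpha chain, was at 16.3, 6.87, and 6.88 CPM (WT) and 37.1, 55.8, and 36.8 CPM (TNF-Tg) and rose by 1.96 (SE 0.35, edgeR FDR 0.00562), and the collagen receptor *Itga2* rose by 1.92 (SE 0.43, FDR 0.0189). *Lama4* was at 267, 309, and 354 CPM (WT) and 231, 172, and 200.4 CPM (TNF-Tg), with -0.66 (SE 0.16, edgeR FDR 0.0246). *Hspg2* lost its call with cells thinned (FDR 0.123), and *Lama5* with all 3 core genes required (FDR 0.494). *Itga2* lost its call without WT at 8 and 14 weeks or TNF-Tg at 14 and 20 weeks (FDR 0.0656 to 0.0938), and *Lama4* without WT at 14 and 20 weeks or TNF-Tg at 14 and 20 weeks, with cells thinned, with all 3 core genes required, at equal depth, without cells holding an immune UMI, and without Hhip-negative cells (FDR 0.054 to 0.999). Members called higher numbered 1 with cells thinned and with all 3 core genes required and 5 without high-UMI cells.

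Some contractile genes were called higher in TNF-Tg cells, and the calls depended on which cells were counted. Of 16 tested, *Des*, *Cald1*, *Smtn*, *Acta2*, *Tagln*, *Tpm1*, and *Mylk* rose, 9 were not called, and none fell, with a median log2 fold change of 0.61. *Acta2* rose by 0.80 (SE 0.12, edgeR FDR 0.00263). Desmin, *Des*, was at 551, 417, and 458 CPM (WT) and 1124, 728, and 914 CPM (TNF-Tg) and rose by 0.92 (SE 0.17, edgeR FDR 0.00703). *Cald1*, caldesmon, was at 765, 608, and 565 CPM (WT) and 1039.9, 1127, and 1389.7 CPM (TNF-Tg) and rose by 0.83 (SE 0.15, edgeR FDR 0.00615), and *Tagln* at 3327, 2362, and 2778 CPM (WT) and 5589, 3676, and 4607 CPM (TNF-Tg) by 0.67 (SE 0.17, edgeR FDR 0.0329). None of these 4 overlapped. *Myh11*, smooth muscle myosin, was at 446, 463, and 289 CPM (WT) and 704, 555, and 625 CPM (TNF-Tg), with 0.61 (SE 0.18, edgeR FDR 0.0652), and *Actg2* was at 334, 177, and 175 CPM (WT) and 271, 127, and 177 CPM (TNF-Tg), with -0.29 (SE 0.29, edgeR FDR 0.643). Per cell, *Acta2*, *Tagln*, *Myh11*, *Cnn1*, *Actg2*, and *Des* together took a median of 0.289, 0.185, and 0.246% of UMIs in WT and 0.764, 0.519, and 0.624% in TNF-Tg libraries, 0.24 ± 0.052% against 0.636 ± 0.123% (SD, n = 3, two-sided exact permutation p = 0.1, the smallest possible). Without Hhip-negative cells the log2 fold change of *Acta2* was 0.46 and with cells thinned 0.30. *Acta2* and *Cald1* lost their calls with cells thinned, with all 3 core genes required, and without Hhip-negative cells (FDR 0.104 to 0.414), and *Des* with cells thinned and with all 3 core genes required (FDR 0.0734 to 0.101). *Tagln* lost its call without WT at 14 and 20 weeks or TNF-Tg at 8 and 20 weeks, with cells thinned, with all 3 core genes required, without cells holding an immune UMI, and without Hhip-negative cells (FDR 0.060 to 0.333), and *Smtn* without WT at 8 and 20 weeks or TNF-Tg at 14 and 20 weeks, by DESeq2, under the stricter filter, with all 3 core genes required, at equal depth, without cells holding an immune UMI, and without Hhip-negative cells (adjusted p 0.0581 to 0.987). Its log2 fold change of 0.83 was -0.025 with all 3 core genes required and -0.26 without Hhip-negative cells. Listed genes called higher came to 0 with all 3 core genes required, 1 with cells thinned, 2 without Hhip-negative cells, 3 without WT at 20 weeks or TNF-Tg at 20 weeks, and 4 without WT at 14 weeks and without cells holding an immune UMI.

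Of 12 tested transcription factors associated with lung mesenchyme, 4 fell, *Tbx5*, *Klf4*, and *Cebpd* among them, and *Mef2c* rose, with a median log2 fold change of -0.57. *Tbx5*, needed for lung bud formation, was at 119, 113, and 129 CPM (WT) and 74.2, 58.9, and 47.4 CPM (TNF-Tg), with -1.04 (SE 0.18, edgeR FDR 0.00495). *Mef2c*, a muscle and vessel regulator, was at 103, 102, and 72.6 CPM (WT) and 152, 225, and 197 CPM (TNF-Tg) and rose by 1.0 (SE 0.19, edgeR FDR 0.00699). *Klf4* was at 106, 115, and 86.3 CPM (WT) and 59.8, 41.8, and 61.7 CPM (TNF-Tg), with -0.93 (SE 0.19, edgeR FDR 0.0116). The groups did not overlap for these 3, while *Foxf1*, which marks lung mesenchyme, was at 78.2, 79.7, and 113 CPM (WT) and 92.8, 51.1, and 109 CPM (TNF-Tg) and was not called, with -0.13 (SE 0.24, edgeR FDR 0.823). *Tbx5* and *Mef2c* lost their calls with cells thinned (FDR 0.116 to 0.13), and *Klf4* with cells thinned and with all 3 core genes required (FDR 0.15 to 0.177). *Cebpd* lost its call without WT at 8 and 20 weeks or TNF-Tg at 14 and 20 weeks, by DESeq2, with cells thinned, under the stricter filter, with all 3 core genes required, at equal depth, without cells holding an immune UMI, and without Hhip-negative cells (adjusted p 0.0557 to 0.324). Counted the same way, lower calls came to 1 with cells thinned and with all 3 core genes required and 2 without TNF-Tg at 14 and 20 weeks.

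Immediate early and heat shock genes, which also respond to tissue digestion, fell in 6 of 18 tested members and rose in none, with a median log2 fold change of -0.51. The 6 were *Jun*, *Ier2*, *Ier3*, *Hspa1b*, *Hspa1a*, and *Jund*. *Jun* was at 680.1, 729.9, and 548 CPM (WT) and 396, 225, and 230.0 CPM (TNF-Tg), with -1.23 (SE 0.22, edgeR FDR 0.00553), and *Ier3* was at 197, 254, and 254 CPM (WT) and 117, 110.0, and 116 CPM (TNF-Tg), with -1.07 (SE 0.15, edgeR FDR 0.00132), without overlap in either gene. *Fos* was at 304, 491, and 296 CPM (WT) and 346, 41.8, and 34.4 CPM (TNF-Tg), and it was not called, with -1.34 (SE 0.63, edgeR FDR 0.249). The TNF-Tg library at 8 weeks lay within the WT range of *Fos*, and those at 14 and 20 weeks lay below it. *Ier2* lost its call without WT at 8, 14, and 20 weeks or TNF-Tg at 14 and 20 weeks, with cells thinned, under the stricter filter, with all 3 core genes required, and without Hhip-negative cells (FDR 0.0523 to 0.136). For this list, lower calls numbered 2 with all 3 core genes required, 3 without WT at 8, 14, and 20 weeks or TNF-Tg at 14 and 20 weeks and with cells thinned, 11 at 14 and 20 weeks alone, and 12 without TNF-Tg at 8 weeks.

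Of 11 tested death receptor and necroptosis genes, *Tnfsf10*, which encodes TRAIL, and *Fas* rose and none fell, with a median log2 fold change of 0.35. *Fas* was at 81.0, 75.6, and 75.6 CPM (WT) and 103, 158, and 164 CPM (TNF-Tg), with 0.81 (SE 0.18, edgeR FDR 0.0173), and *Tnfsf10* was at 3.55, 9.62, and 6.88 CPM (WT) and 18.6, 27.9, and 27.3 CPM (TNF-Tg), with 1.90 (SE 0.38, edgeR FDR 0.0103). Of 12 cell cycle genes only *Pcna* was abundant enough to test. It was at 46.2, 44.0, and 53.5 CPM (WT) and 45.3, 37.2, and 56.9 CPM (TNF-Tg), and was not called, with -0.08 (SE 0.20, edgeR FDR 0.867). *Fas* lost its call without WT at 8, 14, and 20 weeks or TNF-Tg at 14 and 20 weeks, with cells thinned, and with all 3 core genes required (FDR 0.0577 to 0.292), and *Tnfsf10* without WT at 8 weeks or TNF-Tg at 20 weeks and at equal depth (FDR 0.0518 to 0.0539). Members called higher numbered 0 without WT at 8 weeks or TNF-Tg at 20 weeks, with cells thinned, and with all 3 core genes required and 1 without WT at 14 and 20 weeks or TNF-Tg at 14 weeks, at equal depth, and without cells holding an immune UMI.

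Of 30 tested markers of other cell types outside the definition, 7 were called (23.3%), against 8.35% of all genes tested. Of 4 endothelial genes, the caveolar diaphragm gene *Plvap* rose and *Tmem100* fell. *Plvap* was at 9.95, 39.9, and 13.0 CPM (WT) and 55.7, 52.7, and 54.5 CPM (TNF-Tg), with 1.51 (SE 0.39, edgeR FDR 0.0358), and *Tmem100* was at 111, 119.6, and 88.6 CPM (WT) and 46.4, 29.4, and 13.0 CPM (TNF-Tg), with -1.84 (SE 0.32, edgeR FDR 0.00478). *Cd74*, the invariant chain of class II molecules and the only immune gene tested, was at 2.13, 17.9, and 6.88 CPM (WT) and 70.1, 49.6, and 40.3 CPM (TNF-Tg) and was called higher, by 2.78 (SE 0.47, edgeR FDR 0.00471). In the TNF-Tg library at 8 weeks 1 cell held 89.7% of its UMIs, and without the top cell of each library the levels were 1.42, 15.1, and 6.11 CPM (WT) and 7.21, 38.7, and 29.6 CPM (TNF-Tg), so that the genotypes overlap. Thinned to 2000 UMIs, 0.957, 3.33, and 2.13% of WT and 2.5, 7.41, and 6.85% of TNF-Tg cells held *Cd74*, against 48.7, 47.3, and 51.7% and 59.1, 69.1, and 61.5% of endothelial cells. *Postn* rose among 5 pericyte genes. Of 9 *Col13a1* fibroblast genes, *Mettl7a1* fell, at 169.8, 315, and 186 CPM (WT) and 74.2, 71.3, and 55.7 CPM (TNF-Tg), with -1.76 (SE 0.25, edgeR FDR 0.00152). *Col14a1* and *Dcn* fell among 5 *Col14a1* fibroblast genes. Of 1 epithelial, 4 mesothelial, and 1 erythroid gene, none was called by edgeR or DESeq2, none had an unadjusted p under 0.05, and no cartilage gene was abundant enough to test. The mesothelial genes *Msln* and *Upk3b* were called higher without WT at 8 weeks (4.37, FDR 0.0252, and 5.17, FDR 0.0436) and at 14 and 20 weeks alone. Single cells held most of their UMIs, and without the top cell of each library *Msln* went from 61, 10, and 17 UMIs to 0, 1, and 0 and *Upk3b* from 16, 62, and 18 to 0, 13, and 0 in TNF-Tg libraries, with at most 1 UMI of either in each WT library. *Plvap* lost its call without WT at 8 and 20 weeks or TNF-Tg at 14 and 20 weeks and at 14 and 20 weeks alone (FDR 0.0852 to 0.168), and *Cd74* with all 3 core genes required (FDR 0.408). *Mettl7a1* lost its call with cells thinned (FDR 0.079).

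Whether a change was larger or smaller in these cells than in neighboring fibroblasts was tested as a difference of genotype effects between 2 classes of the same libraries. Against *Col13a1* fibroblasts (812 cells), edgeR called 317 of 9578 genes (3.31%), 135 with a more positive and 182 with a more negative change in the *Aspn*, *Hhip*, and *Lgr6* cells. In *Col13a1* fibroblasts *C3* was at 813, 1735, and 999 CPM (WT) and 5739, 6959.6, and 5656 CPM (TNF-Tg), and its log2 fold change was larger in the *Aspn*, *Hhip*, and *Lgr6* cells by 1.87 (SE 0.26, FDR 0.00256). *Vcam1*, at 462, 395, and 431 CPM (WT) and 766, 690.0, and 378 CPM (TNF-Tg) there, differed by 2.97 (SE 0.40, FDR 0.00236). *Spock2*, at 34.7, 75.9, and 25.1 CPM (WT) and 24.1, 65.6, and 57.3 CPM (TNF-Tg) there, differed by -3.25 (SE 0.58, FDR 0.00985). *Lum* was at 56.3, 50.4, and 41.5 CPM (WT) and 219, 531, and 1017 CPM (TNF-Tg) in *Col13a1* fibroblasts, where all TNF-Tg libraries lay above all WT libraries, opposite to its order in the *Aspn*, *Hhip*, and *Lgr6* cells, and the difference was -5.58 (SE 0.68, FDR 0.00134). Markers of the comparison class moved with genotype as well. *Inmt*, one of the genes that chose it, was at 6283, 6564, and 5958 CPM (WT) and 3179, 615, and 682 CPM (TNF-Tg) there, and *Dcn*, a marker of *Col14a1* fibroblasts, was at 615, 735, and 649 CPM (WT) and 1229.5, 3185, and 5178 CPM (TNF-Tg), and their part in the differences was not tested. *Tnfaip2* was at 83.6, 76.6, and 68.1 CPM (WT) and 120.3, 228, and 94.2 CPM (TNF-Tg) there and differed by 3.80 (SE 0.80, FDR 0.0237). *Ltbp2* was at 15.9, 15.9, and 50.9 CPM (WT) and 678, 1817, and 809 CPM (TNF-Tg) there, and its difference of -1.52 (SE 0.43, FDR 0.078) missed the threshold, which it passed without TNF-Tg at 8 weeks (-1.69, FDR 0.0321) and with all 3 core genes required. *C3*, *Vcam1*, and *Lum* kept their calls without each library in turn, *Spock2* lost its call without TNF-Tg at 14 and 20 weeks (highest FDR 0.0754), *Tnfaip2* lost its call without WT at 8 and 20 weeks (highest FDR 0.113), and *Spock2* also with cells thinned, and *Tnfaip2* also with all 3 core genes required. The count was 120 without WT at 8 weeks, 94 without WT at 20 weeks, 553 without TNF-Tg at 8 weeks, 159 without TNF-Tg at 14 weeks, and 115 without TNF-Tg at 20 weeks.

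Against *Col14a1* fibroblasts (815 cells), 407 of 10149 genes (4.01%) differed, 250 with a more positive and 157 with a more negative change in the *Aspn*, *Hhip*, and *Lgr6* cells. *Mmp3* was at 775, 422, and 202 CPM (WT) and 57.9, 165, and 301 CPM (TNF-Tg) in *Col14a1* fibroblasts, and the difference was 5.74 (SE 0.33, FDR 8.3e-07) by edgeR. *Cyp1b1* was at 90.1, 98.0, and 83.9 CPM (WT) and 79.2, 80.8, and 105 CPM (TNF-Tg) there, with a difference of 4.58 (SE 0.56, FDR 0.0005). *Cilp* was at 438, 123, and 351 CPM (WT) and 126, 394, and 394 CPM (TNF-Tg) there, with a difference of 4.21 (SE 0.43, FDR 0.000136). For these 3 genes the WT level here was below the range of the *Col14a1* fibroblast libraries, and the TNF-Tg libraries were within it or above it at 14 and 20 weeks. *Ltbp2* was at 118, 60.5, and 62.9 CPM (WT) and 89.5, 77.7, and 123 CPM (TNF-Tg) there, with a difference of 3.55 (SE 0.29, FDR 2.41e-05). *Igfbp7* was at 2945, 2079, and 2584 CPM (WT) and 2478, 2768, and 2555 CPM (TNF-Tg) there and differed by 1.68 (SE 0.16, FDR 9.42e-05). In *Col13a1* fibroblasts *Igfbp7* was at 1979, 1629, and 1770 CPM (WT) and 5130, 8505, and 4657 CPM (TNF-Tg). In the smooth muscle and pericyte classes its TNF-Tg libraries also lay above all WT libraries, so its rise was not particular to these cells. *Fgf18* was at 20.0, 20.2, and 9.93 CPM (WT) and 32.3, 22.5, and 33.5 CPM (TNF-Tg) in *Col14a1* fibroblasts and differed by -2.99 (SE 0.43, FDR 0.00145). *C3*, at 1915, 3059, and 2838 CPM (WT) and 4342, 7157, and 6650.0 CPM (TNF-Tg) there, differed by 3.12 (SE 0.17, FDR 8.3e-07). *Mmp3*, *Cyp1b1*, *Cilp*, *Ltbp2*, *Igfbp7*, *Fgf18*, and *C3* kept their calls without each library in turn. The count was 251 without WT at 8 weeks, 229 without WT at 14 weeks, and 197 without WT at 20 weeks.

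**Figure D5:**
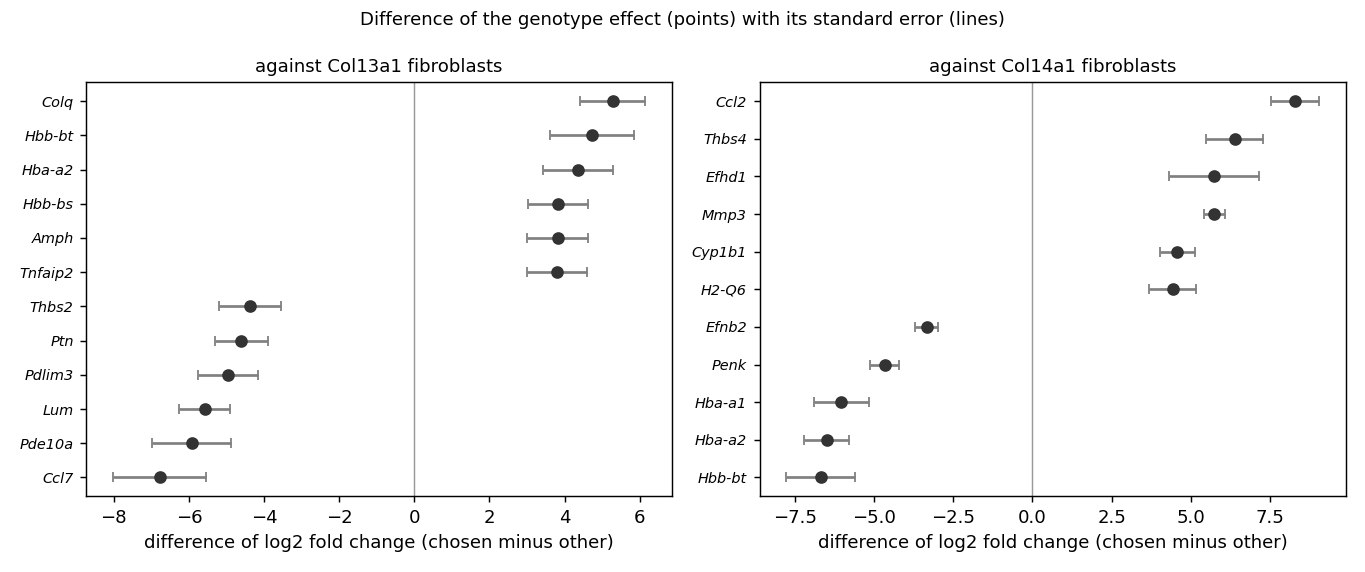
Difference of the log2 fold change (TNF-Tg over WT, horizontal) of the *Aspn*, *Hhip*, and *Lgr6* cells (chosen) from that of *Col13a1* fibroblasts (left) and *Col14a1* fibroblasts (right), with standard errors as lines, for up to 6 of the largest called differences in each direction among genes of at least 50 CPM. *Mmp3* stood at 5.74 against *Col14a1* fibroblasts and *Lum* at -5.58 against *Col13a1* fibroblasts.

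Against smooth muscle cells no gene was called of 8997 tested (0%) by edgeR, while 646 had an unadjusted p under 0.05. DESeq2 was not run on this difference, and a p that misses the threshold does not show that the classes changed alike. The class was small in WT libraries, with 21, 20, and 30 cells against 26, 121, and 202 in TNF-Tg libraries, and its WT cells had *Hhip* at 1293, 3294, and 732 CPM, between its level in the *Aspn*, *Hhip*, and *Lgr6* cells and that in other cells. Other genes of the class differed as well. *Col1a2* was at 281, 363, and 409 CPM (WT) and 910.0, 1383, and 2045 CPM (TNF-Tg) there, without overlap. *Acta2* was at 8581, 4884, and 7486 CPM (WT) and 7615, 5749.5, and 2553 CPM (TNF-Tg) there, with overlap. Their part in the result was not tested. The count of called genes was 61 without TNF-Tg at 8 weeks.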

How the data were processed

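The authors counted UMIs per gene and cell barcode with Cell Ranger on mm10 (GRCm38) and deposited 1 matrix per library, with 32285 genes. Per the file headers the libraries at 8 weeks came from version 5.0.0 and those at 14 and 20 weeks from version 6.0.1, while the submitters' processing notes name 5.0.0. Library totals were 39574391, 33680696, and 39839916 UMIs in WT and 69082440, 64475410, and 72655387 in TNF-Tg libraries.

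Counts of the cells defined above were summed per library with Python 3.11.15. Genes passing filterByExpr were tested with edgeR 4.0.16 (R 4.3.3, TMM, quasi-likelihood F test, Benjamini-Hochberg adjustment), and those of the 18 genes of the definition that passed were in the fit but not counted or called. Differences between classes were fitted on 12 sums with library as a block. P-values measure the spread between pooled libraries of 3 ages. Doublets were gated by scatter in the study, and no doublet caller was run. The members and gene lists were chosen with earlier results of these data known.

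Named genes were the 12 largest called log2 fold changes in each direction (a mean of 50 CPM or more in 1 genotype, the sign shared by every age), up to 4 called genes per list and direction (or the 2 most abundant of a list without a call), the genes of the definition, 15 leading genes, and the 6 largest called differences per direction and class. *Col13a1* fibroblasts needed at least 2 and *Col14a1* fibroblasts and smooth muscle cells at least 3 of their markers. Alternatives were DESeq2 1.42.0, upper quartile scaling, no low-count filter, other cell filters, thinning, age as a block, and fits without each library or without both libraries at 8 weeks. Fits without cells holding an immune UMI or without Hhip-negative cells, levels without the top cell of each library, and the added denominators of the mesenchymal share were chosen after the data were seen. So were the NF-kB and IRF motifs, which replaced narrower forms already searched in the same promoters. A few genes that met these rules are not reported here.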

Additional observations from a re-analysis of the deposited data

Results flagged for a closer look

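The genotype effect, as log2 fold change of TNF-Tg over WT, differed between the *Aspn*, *Hhip*, and *Lgr6* cells and a fibroblast class by a test of the difference itself (edgeR, FDR under 0.05) for the genes below, named by their size.

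Against *Col13a1* fibroblasts the effect was more positive for *Colq*, the collagen tail of acetylcholinesterase (by 5.28), the hemoglobin genes *Hbb-bt* (4.73), *Hba-a2* (4.35), and *Hbb-bs* (3.83), the membrane-bending protein gene *Amph* (3.81), and *Tnfaip2* (3.80). It was more negative for the chemokine *Ccl7* (by -6.78), the phosphodiesterase *Pde10a* (-5.93), *Lum* (-5.58), *Pdlim3*, a protein of the muscle Z-disc (-4.96), the heparin-binding growth factor *Ptn* (-4.60), and *Thbs2*, thrombospondin 2 (-4.37). *Colq*, *Lum*, and *Ptn* kept the call without each library in turn, but with cells thinned to 2000 UMIs *Ptn* lost it (-1.01, FDR 0.722), as did *Ccl7* (-0.97, FDR 0.846), *Pdlim3* (-4.89, FDR 0.0526), and *Thbs2* (-2.06, FDR 0.332). With all 3 core genes required *Amph* (3.10, FDR 0.462) and *Tnfaip2* (6.06, FDR 0.0618) lost it, *Hbb-bt* did so without high-UMI cells (1.77, FDR 0.276), and *Hbb-bs* at 14 and 20 weeks alone (1.08, FDR 0.607). *Ccl7* lost it without WT at 20 weeks, where the difference was -0.96, *Pde10a* without TNF-Tg at 14 weeks, *Pdlim3* without TNF-Tg at 20 weeks, and *Hbb-bs* without WT at 8 weeks or TNF-Tg at 20 weeks. *Amph*, *Hba-a2*, *Hbb-bt*, *Thbs2*, and *Tnfaip2* lost it without WT at 20 weeks and without at least 1 other library. *Hbb-bs* was at 3329 CPM in *Col13a1* fibroblasts of the WT library at 8 weeks and at most 80.9 CPM in those of the other 5 libraries. In *Col13a1* fibroblasts *Ccl7* had 0 UMIs in WT and 137 in TNF-Tg libraries and *Pde10a* had 1 and 7, so the sizes of these fitted differences rest on a group at or near 0.

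Against *Col14a1* fibroblasts the effect was more positive for *Ccl2* (by 8.29), the matrix protein gene *Thbs4* (6.39), *Efhd1*, a mitochondrial calcium-binding protein (5.74), *Mmp3* (5.74), *Cyp1b1* (4.58), and *H2-Q6* (4.43). It was more negative for *Hbb-bt* (by -6.69), *Hba-a2* (-6.50), *Hba-a1* (-6.04), the opioid precursor gene *Penk* (-4.67), and *Efnb2* (-3.34). *Ccl2*, *Mmp3*, *Cyp1b1*, and *Efnb2* kept the call without each library in turn and under the other 6 settings run. *Thbs4* and *Penk* kept it without each library but lost it with cells thinned (3.09, FDR 0.175, and -5.77, FDR 0.0569), and *Thbs4* turned to -1.58 (FDR 0.808) with all 3 core genes required. *Efhd1* lost it under the stricter cell filter, without high-UMI cells, and with all 3 core genes required (-0.65), and the hemoglobin genes without high-UMI cells (FDR 0.353 to 0.866). *H2-Q6* lost it without WT at 20 weeks, the hemoglobin genes without WT or TNF-Tg at 8 weeks, and *Efhd1* without any library except TNF-Tg at 8 weeks. *Hba-a1* was at 1342 CPM in *Col14a1* fibroblasts of the TNF-Tg library at 8 weeks. *Efhd1* rested on 0 UMIs in WT and 17 in TNF-Tg chosen cells, of which 4 remained without the top cell of each library, and *Thbs4* on 1 and 38, of which none remained, since 1 cell held all 17 in the TNF-Tg library at 14 weeks and 1 cell all 21 in that at 20 weeks. *Colq*, above, rested on 4 and 23 UMIs, of which 2 and 11 remained. *Penk* had 130 UMIs in WT and 4 in TNF-Tg chosen cells, so the size of its difference rests on a group near 0. The same holds for *Ccl2*, with 0, 1, and 7 UMIs in WT chosen cells. *Ccl2* was at 3.85, 361, and 1331 CPM (WT) and 155, 706, and 257 CPM (TNF-Tg) in *Col14a1* fibroblasts. In *Col13a1* fibroblasts it was at 0.408, 9.66, and 0.783 CPM (WT) and 129, 918, and 284 CPM (TNF-Tg). All TNF-Tg libraries lay above all WT libraries in the smooth muscle and pericyte classes too.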

How the results depend on the processing

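The 714 genes called between genotypes became 1286 with no low-count filter, 148 with cells thinned to 2000 UMIs (2368 tested), 285 with all 3 core genes required, and 402 to 1034 without 1 library. Differences from *Col13a1* fibroblasts (317) became 722 with no filter, 87 with cells thinned, 600 without high-UMI cells, and 94 to 553 without 1 library. Those from *Col14a1* fibroblasts (407) became 770 with no filter, 108 with cells thinned, 245 with all 3 core genes, and 197 to 526 without 1 library. Those from smooth muscle (0) became 166 with no filter, 11 at 14 and 20 weeks, 44 with cells thinned, 3 under the stricter filter, 13 with all 3 core genes, 43 without high-UMI cells, and 0 to 61 without 1 library.

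Signs changed with cells thinned for *Dcn* (0.34), *Gas1* (0.32), *Ptch1* (0.50), *Ltbp1* (-0.27), and *Myh11* (-0.32), with all 3 core genes for *Smtn* (-0.025), *Ptch1* (0.33), and, against *Col14a1* fibroblasts, *Thbs4* (-1.58) and *Efhd1* (-0.65), without Hhip-negative cells for *Smtn* (-0.26) and *Myh11* (-0.11), without high-UMI cells for *Ptch1* (0.022), and at equal depth for *Msln* (-0.036). Without 1 library, *Gas1* ranged from -0.39 to 0.23, *Msln* from -0.94 to 4.37, *Actg2* from -0.65 to 0.090, *Pcna* from -0.23 to 0.040, *Scgb1a1* from -0.39 to 2.01, *Upk3b* from -0.13 to 5.17, and *Hbb-bs* from -1.61 to 2.45. Of these only *Msln* and *Upk3b* were called in any of those fits, at their highest value, without WT at 8 weeks. Fewer cells and genes entered the fits on thinned or stricter cells, and beyond that the cause was not tested.

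Of 104 called named genes, upper quartile scaling kept every call. DESeq2 kept 94 of the 103 it gave an adjusted p for, and thinning cells 36 of 64 tested. DESeq2 called 522 genes in all, 500 of them shared with edgeR, and 897 were called at 14 and 20 weeks. The share of kept cells was lower in TNF-Tg under every alternative run, with TNF-Tg minus WT from -2.22 to -0.643 percentage points, and the mesenchymal share likewise, from -22.2 to -7.39 points. With age as a replicate block, 889 genes were called, 703 of them shared, *Znrf3* lost its call, *Cdh4*, *Cnn1*, *Myh11*, and *Ptn* gained one, and the shares had an exact permutation p of 0.25, the smallest 3 pairs allow. Genotypes share ages but no animals, and deviations of same-age libraries correlated at 0.102, 0.0705, and 0.101, so pairing was not assumed, although each library correlated best with its own age. The median TNF-Tg cell was deeper at all 3 ages, so genotype and depth cannot be told apart beyond the thinned fits.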
